A study of Arabidopsis thaliana with 2 samples.

Results

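The phosphoethanolamine methyltransferase genes of Arabidopsis thaliana were followed in pollen tubes of wild type and of a double mutant, from a series that asks about sperm cells as cargo of the tube. The members are the rows with gene identifiers AT3G18000 (XPL1, also called NMT1), AT1G48600 (NMT2) and AT1G73600 (NMT3), 3 of the 33557 genes in the deposited table. The family was chosen by the FPKM values of XPL1, which was far higher in the mutant, so that difference is given as a description. 1 library was made per genotype, WT (genotype wild type) and drop (genotype drop1- drop2-), and no value has a replicate error or a test. Both libraries came from semi-in-vivo tubes, which grow through a cut style and emerge from it onto solid medium, with tubes of 2 stigmas pooled and carried through Smart-seq2 on polyadenylated RNA. Tubes were cut at 300 to 400 µm outside the style. The treatment text mentions double mutant grains for both libraries, so each genotype rests on its genotype label, and the transcripts of the mutated genes were not looked up.

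Plants make choline by adding methyl groups to phosphoethanolamine, with S-adenosylmethionine as the donor. The product, phosphocholine, is activated with CTP and joined to diacylglycerol to give phosphatidylcholine, a main lipid of the membranes that a growing tube has to enlarge. XPL1 is known to catalyse every methylation of this series, and its silencing in Arabidopsis is known to cause temperature-sensitive male sterility. NMT2, named PMEAMT in RefSeq, is known for the later methylations and does not take the first, while NMT3 encodes a close relative.

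The members are close relatives, which matters for whether sequencing fragments can be told apart. Their models in RefSeq (build TAIR10.1) put XPL1 on chromosome 3 from 6154363 to 6157552, NMT2 on chromosome 1 from 17965871 to 17969354 and NMT3 on chromosome 1 from 27669152 to 27673572, all on the plus strand. The coding sequences of XPL1 and NMT2 were identical at 85.2% of 1476 aligned bases. XPL1 and NMT3 were identical at 77.1%, and NMT2 and NMT3 at 76.2%. The longest coding exon has the same length of 281 bases in each gene and is coding exon 8 in each. Its sequence is printed 5′ to 3′, with capitals at the 70 positions where the 3 genes do not share 1 base and lower case at the 211 where they do. It spans chr3:6156304-6156584 in XPL1, chr1:17968058-17968338 in NMT2 and chr1:27672486-27672766 in NMT3.
XPL1: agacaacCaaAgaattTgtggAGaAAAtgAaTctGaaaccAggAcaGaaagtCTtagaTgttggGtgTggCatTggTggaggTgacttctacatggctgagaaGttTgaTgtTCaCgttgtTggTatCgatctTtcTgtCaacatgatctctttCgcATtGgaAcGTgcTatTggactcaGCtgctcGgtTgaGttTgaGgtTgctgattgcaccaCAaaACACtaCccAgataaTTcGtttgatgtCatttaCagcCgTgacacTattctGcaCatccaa
NMT2: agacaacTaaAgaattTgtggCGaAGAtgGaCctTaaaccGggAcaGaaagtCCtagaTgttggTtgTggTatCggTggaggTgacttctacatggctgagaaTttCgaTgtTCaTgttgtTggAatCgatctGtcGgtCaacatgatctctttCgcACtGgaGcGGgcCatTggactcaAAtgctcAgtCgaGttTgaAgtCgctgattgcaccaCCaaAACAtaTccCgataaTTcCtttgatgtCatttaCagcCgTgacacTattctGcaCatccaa
NMT3: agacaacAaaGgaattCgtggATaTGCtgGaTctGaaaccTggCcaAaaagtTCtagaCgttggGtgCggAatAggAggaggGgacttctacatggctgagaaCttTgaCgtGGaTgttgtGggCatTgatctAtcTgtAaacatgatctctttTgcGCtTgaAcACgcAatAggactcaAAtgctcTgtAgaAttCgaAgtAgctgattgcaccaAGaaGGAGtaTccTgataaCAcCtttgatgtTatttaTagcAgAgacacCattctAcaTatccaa
In this exon XPL1 differed from NMT2 at 34 bases and from NMT3 at 62, and NMT2 differed from NMT3 at 60. Over the whole longest transcripts, the longest run of identical bases was 47 between XPL1 and NMT2 and 22 between XPL1 and NMT3. None of the 1863 windows of 50 bases in the XPL1 transcript occurred in NMT2 or NMT3 (0 windows in either). The read length is not given in the sources used here.

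XPL1 transcripts were abundant in the drop library and scarce in WT. XPL1 stood at 1.43 FPKM (fragments scaled to transcript length and to the number of mapped fragments) in WT against 220.0 FPKM in drop, a 154-fold higher deposited value in drop. The log2 ratio with 1 FPKM added to each library was 6.51. Among the genes above 0 FPKM in each library, XPL1 moved from percentile 49.9 in WT to percentile 95.6 in drop. It took place 9 among the 3633 genes that reached 10 FPKM in either library, ordered by this log2 ratio. The value of 1 fragment, read from the smallest steps of FPKM in transcripts of at least 3 kb, gives about 19.8 fragments for XPL1 in WT and about 1730 in drop. Counting error at these estimated numbers gives a 95% exact binomial interval of 98.2 to 250.0 for the ratio of drop to WT, which covers counting error only and not the spread between tubes or libraries.

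NMT2 had the opposite pattern. It stood at 4.71 FPKM in WT against 0.0942 FPKM in drop, a 49.96-fold lower deposited value in drop. The log2 ratio with 1 FPKM added was -2.38. NMT2 was at percentile 71.1 of the detected genes in WT and at percentile 2.63 in drop. The WT value rests on about 66.6 estimated fragments and the drop value on about 0.757, which is close to a lone fragment. The counting interval of the ratio of WT to drop is therefore wide, from 6.60 to 1520. A fall of this depth was not rare: of the 4375 genes with at least the NMT2 level in WT, 201 had a listed value of 0 for drop and 2, NMT2 included, were above 0 but no higher than NMT2. NMT2 stayed below 10 FPKM in both libraries. With the minimum at 1 FPKM, where it does pass 2-fold, 30.4% of 9880 genes were lower in drop past 2-fold and 26.4% higher.

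NMT3 was listed at 0 FPKM in both libraries. So were 16824 genes, or 50.1% of the table, and a listed 0 can also be a failed estimate. The order of levels per length was thus NMT2, XPL1, NMT3 in WT and XPL1, NMT2, NMT3 in drop.

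**Figure D1:**
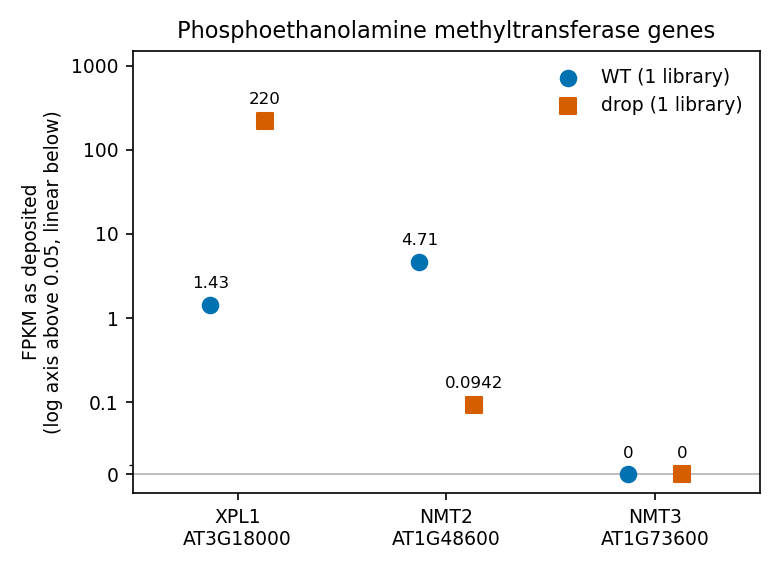
Deposited FPKM of XPL1, NMT2 and NMT3 in the WT library (circles) and the drop library (squares), 1 library each, on an axis that is logarithmic above 0.05 FPKM and linear below. XPL1 goes from 1.43 to 220.0 FPKM while NMT2 goes from 4.71 to 0.0942, and NMT3 lies at 0 in both.

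The make-up of the family within a library, as deposited, is not altered by multiplying that library by a common factor. XPL1 held 23.3% of the summed FPKM of the 3 members in WT and NMT2 held 76.7%. In drop, XPL1 held 99.96% and NMT2 0.0428%. Counted in estimated fragments, XPL1 made up 20 of 87 in WT, or 23.0% (95% exact binomial interval 14.6% to 33.2%), and 1728 of 1729 in drop, or 99.9% (99.7% to 99.999%). These intervals cover counting error within each library only. Since XPL1 chose the family, this shift is a description and not independent evidence.

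The summed level of the 3 genes was 6.14 FPKM in WT and 220.1 FPKM in drop, 35.9-fold higher as deposited. The FPKM columns sum to 1299596 for WT and to 3668033 for drop, which is 2.82 times as much, and whether the libraries are on a common scale was not tested. Out of every 1000000 FPKM of a library's own sum, the family held 4.72 in WT against 60.0 in drop, 12.7-fold more. Setting drop to the WT sum (equal sums below) left the log2 ratio of XPL1 at 5.02, and its place among the 3633 genes was 10. Under that scaling the log2 ratio of NMT2 was -2.47. XPL1 lay above 2-fold and NMT2 below it under each of the 5 scalings used, the deposited values included.

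**Figure D2:**
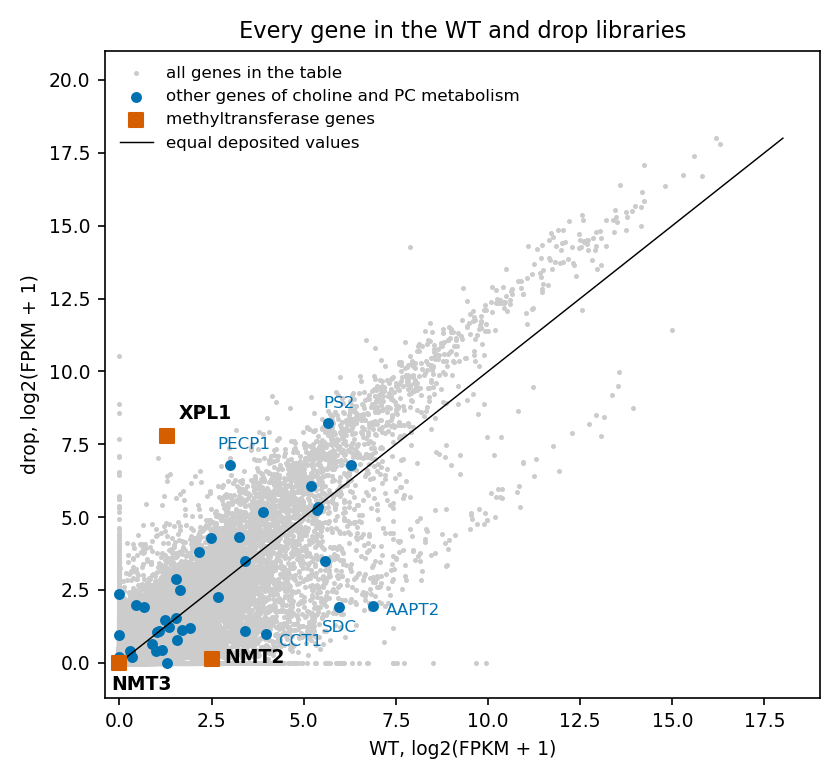
Each grey point is a gene, with log2(FPKM + 1) in WT on the horizontal axis and in drop on the vertical axis, and the line marks equal deposited values. XPL1 lies far above the line, NMT2 close to the horizontal axis, and the other genes of choline and phosphatidylcholine metabolism (blue) on both sides.

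The rows beside the members in identifier order were read as well. AT3G18010 (WOX1, a homeobox gene) after XPL1 and AT1G48605 (ATHAL3B) after NMT2 were listed at 0 in both libraries, as was AT1G73602 after NMT3. AT3G17998, the row before XPL1, was at 26.6 FPKM in WT against 36.1 in drop, and AT1G48598, the row before NMT2, at 0.721 against 3.81. The identifiers AT3G17998, AT1G48598 and AT1G73602 have no entry in the RefSeq annotation used. Whether these rows overlap the members, for example at the upstream open reading frames described below, and take fragments from them was therefore not tested. The ratios, intervals and shares of XPL1 and NMT2 given above do not allow for it. In that annotation, which lacks these identifiers, 0 genes overlap a member. RefSeq also marks 1 upstream open reading frame of 78 bases in each member. The frame in XPL1 is known to repress translation of the main protein when phosphocholine is plentiful, and transcript levels do not show that step.

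By distance in log2(FPKM + 1) over the 2 libraries, the 5 genes most like XPL1 in pattern were AT5G14330, GASA1, AT2G40310, AT3G43291 and AT3G42940. AT5G14330, an uncharacterised protein gene, was the closest, at 1.21 FPKM in WT against 199.96 in drop, a distance of 0.19. GASA1 (AT1G75750), a cysteine-rich peptide gene, was at 1.06 FPKM in WT against 131 in drop. AT2G40310, a pectin lyase-like gene, was at 3.41 and 406 FPKM, and the RING finger gene AT3G42940 at 1.57 and 87.7. AT3G43291 was listed at 0 in WT and at 202 FPKM in drop. With 2 libraries such likeness only says that these rows had low values in WT and high values in drop.

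The other steps of choline and phosphatidylcholine metabolism were followed with 5 lists of 43 genes. Of these, 15 reached 10 FPKM in either library. As deposited, 6 of the 15 passed 2-fold upward in drop and 4 passed it downward. Over all 3633 genes at that level, 45.4% passed it upward and 27.9% downward, so the share of the lists was near the background in each direction. Their median log2 ratio was 0.50, against 0.81 over all 3633 genes. At equal sums 2 were higher and 7 lower with a median of -0.97, while 8.86% of all genes were higher and 43.4% lower with a median of -0.60. Only PECP1 and PS2 stayed at least 2-fold higher, and SDC, CCT1, AAPT2 and SAM2 at least 2-fold lower, under the deposited, equal-sum, median-ratio and quantile scales alike (2 and 4 genes).

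Of the 6 genes for supply of the head group, upstream of the methyltransferases, 3 reached 10 FPKM. Past 2-fold, 1 was higher and 1 lower as deposited, against 45.4% and 27.9% of all genes. At equal sums 0 were higher and 1 lower, against 8.86% and 43.4%. EMB1187 reached 10 FPKM in drop only and SDC in WT only, so that minimum let each in through the library where it was higher. SDC (AT1G43710, EMB1075 in RefSeq), the serine decarboxylase that makes ethanolamine, was at 60.7 FPKM in WT against 2.74 in drop, a 22.2-fold lower value. That is the reverse direction to XPL1, for a gene that makes the precursor of its substrate. EMB1187 (AT2G26830), a kinase that phosphorylates ethanolamine, was at 3.51 FPKM in WT against 12.9 in drop, a 3.69-fold higher value in the direction of XPL1, with a log2 ratio of 1.63 that was 0.31 at equal sums. The choline kinase gene CEK1 (AT1G71697, CK1 in RefSeq) was at 76.3 and 109 FPKM, below 2-fold. CEK2 and CEK3, of the same kinase family, had 1.24 and 1.44 FPKM in WT against 0.348 and 0 in drop. The choline transporter gene CTL1 (AT3G15380) was listed at 0 in both libraries.

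The next 5 genes activate phosphocholine or phosphoethanolamine, or join the head group to diacylglycerol. Of these, 3 reached 10 FPKM. Past 2-fold, 0 of the 3 were higher and 2 lower, both as deposited and at equal sums. Over all genes 45.4% were higher and 27.9% lower as deposited, and 8.86% and 43.4% at equal sums. The lower genes, AAPT2 and CCT1, reached 10 FPKM in WT only, so that minimum let them in through the library where they were higher. AAPT2 (AT3G25585), an aminoalcoholphosphotransferase that joins the activated head group to diacylglycerol, was at 117 FPKM in WT against 2.83 in drop, a 41.4-fold lower value. AAPT1 (AT1G13560) of the same step was at 9.68 and 1.13 FPKM, just short of 10 FPKM. Both genes of the last step thus had their lower value in drop under each scaling. CCT1 (AT2G32260), which activates phosphocholine with CTP, was at 14.8 FPKM in WT against 1.01 in drop, a 14.6-fold lower value. Its paralog CCT2 (AT4G15130) was at 35.4 FPKM in WT against 66.8 in drop, a log2 ratio of 0.90 that was -0.56 at equal sums. CCT2 was the more abundant CCT gene in both libraries. PECT1 (AT2G38670), which activates phosphoethanolamine, was at 1.88 and 6.32 FPKM.

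The 5 genes listed for phosphatidylserine synthesis, its decarboxylation to phosphatidylethanolamine and later methylation had low values, with 0 of 5 at 10 FPKM. PLMT (AT1G80860), which methylates the phospholipid at its later steps, was at 1.37 FPKM in WT against 1.77 in drop. The phosphatidylserine decarboxylase genes PSD1 to PSD3 and the phosphatidylserine synthase gene PSS1 stood at 2.92 FPKM or less in both libraries.

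Of the methyl donor cycle, 3 of the 5 genes with at least 10 FPKM stayed within 2-fold as deposited. The S-adenosylmethionine synthetase genes SAM1 (AT1G02500), MAT3 (AT2G36880) and MAT4 (AT3G17390, MTO3 in RefSeq) had 40.1, 41.2 and 13.9 FPKM in WT against 36.9, 39.9 and 34.8 in drop. SAM2 (AT4G01850) was the member of this group that was lower, with 46.9 FPKM in WT against 10.2 in drop, and as close paralogs SAM1 and SAM2 may share fragments. SAHH1 (AT4G13940, HOG1 in RefSeq), which removes the S-adenosylhomocysteine left by each methylation, was at 9.65 and 10.3 FPKM. The adenosine kinase genes ADK1 and ADK2 had 2.74 and 1.88 FPKM in WT against 1.31 and 1.91 in drop. Of these 5 genes, 1 passed 2-fold upward (MAT4) and 1 downward (SAM2), against 45.4% and 27.9% of all genes. At equal sums 0 were higher and 4 lower, against 8.86% and 43.4%.

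Among the 14 genes for the release of head groups, the more abundant ones had higher deposited values in drop. Of the 14, 4 had at least 10 FPKM. Of these 4, 4 were at least 2-fold higher as deposited, against 45.4% of all genes, with a median log2 ratio of 2.19. PECP1, PAH1 and PLDDELTA reached 10 FPKM in drop only, so that minimum let them in through the library where they were higher. At equal sums 2 of the 4 were at least 2-fold higher, against 8.86% of all genes, with a median of 0.76. PECP1 (AT1G17710, PEPC1 in RefSeq), a phosphatase that acts on phosphoethanolamine and phosphocholine, was at 6.94 FPKM in WT against 109 in drop, a 15.7-fold higher value. PS2 (AT1G73010), its close relative, was at 49.4 FPKM in WT against 302 in drop, a 6.11-fold higher value. Both enzymes consume the substrate or product of XPL1, and both genes are known to be induced in phosphate-starved plants.

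The other members of this group were lipases and phosphatases of phospholipids. PAH1 (AT3G09560), a phosphatidate phosphatase that restrains phospholipid synthesis, was at 4.64 FPKM in WT against 18.5 in drop. PLDDELTA (AT4G35790), a phospholipase D, was at 8.48 and 19.1 FPKM, a log2 ratio of 1.08 that was -0.29 at equal sums. PLDZETA2 (AT3G05630, PLDP2 in RefSeq), another phospholipase D, was listed at 0 in WT and stood at 4.15 FPKM in drop, about 60.0 estimated fragments. Its paralog PLDZETA1 (AT3G16785, PLDP1 in RefSeq) had the reverse order, at 1.97 FPKM in WT against 0.73 in drop, and PLDALPHA1 was level at 1.12 and 1.13. Below 10 FPKM too, NPC3, NPC6 and PAH2 had 0.86, 0.26 and 1.52 FPKM in WT against 0.58, 0.15 and 1.36 in drop, while NPC1 had 0.58 against 2.75. The phospholipase C genes NPC2, NPC4 and NPC5 were listed at 0 in both libraries.

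**Figure D3:**
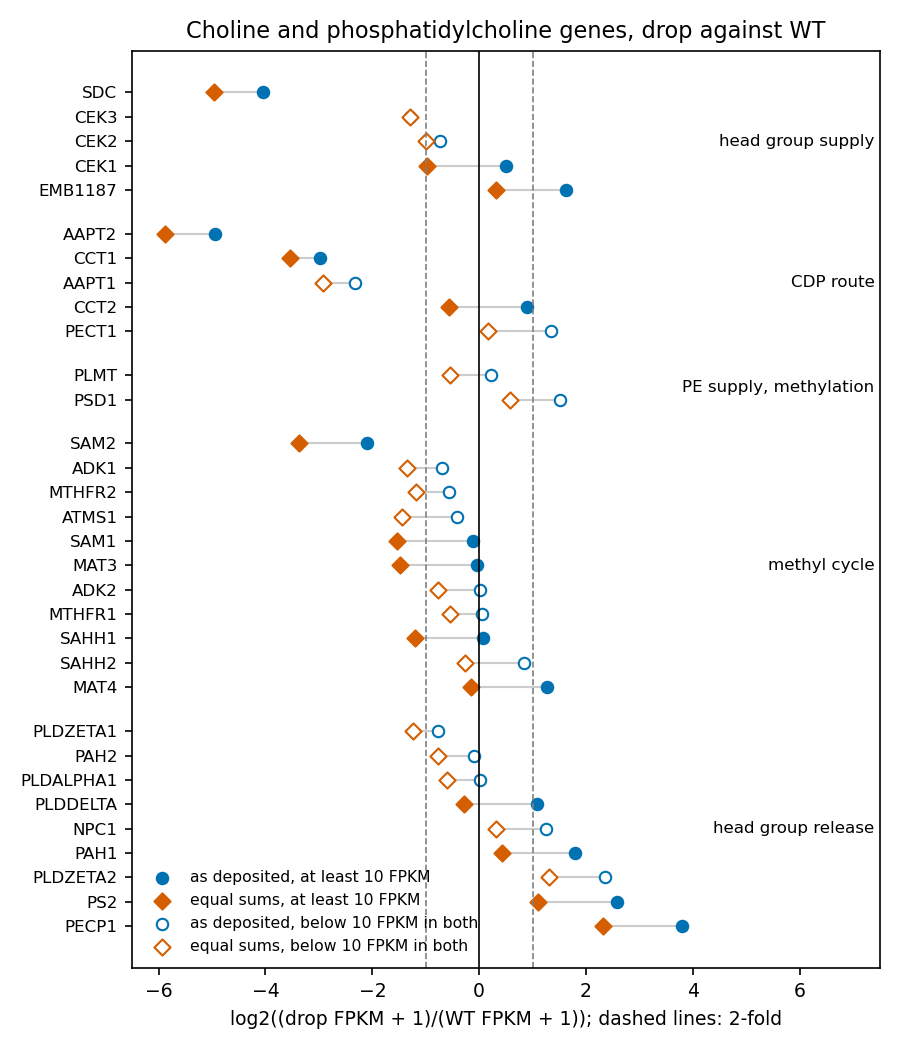
Log2 ratio of drop to WT, with 1 FPKM added to each, for the pathway genes that reached 1 FPKM in either library, by step. Circles are deposited values and diamonds values at equal sums, filled where the gene reached 10 FPKM in either library; AAPT2, SDC and CCT1 lie far left and PECP1 and PS2 to the right on both scales.

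Levels of cell type markers differed between the libraries as well, and fewer cells of a type cannot be told apart from less RNA per cell in such pooled tubes. Of 14 sperm markers, 10 had at least 10 FPKM and drop was past 2-fold lower in 10 of those 10, against 27.9% of all genes. HAP2, GEX3, TET11, TET12, DMP9 and SSP reached 10 FPKM in WT only, so that minimum let them in where they were higher. Below 10 FPKM, DUO1 was at 8.34 FPKM in WT against 0.76 in drop, and DAZ1 and DAZ2 were listed at 0 in drop. GEX2 had the reverse order, at 9.35e-05 FPKM in WT against 0.331 in drop. The sperm list summed to 16550 FPKM in WT against 623 in drop. All 12 of 12 vegetative tube markers, such as ANX1 and ROP1, were at least 2-fold higher as deposited, against 45.4% of all genes, and 4 of 12 at equal sums, against 8.86%, with a summed level of 8369 FPKM in WT against 30750 in drop. That sum was 3.67-fold higher in drop. PRK3, at 7.19 FPKM in WT against 49.4 in drop, reached 10 FPKM in drop only and so entered where it was higher. Of 12 style and carpel markers, 6 (CRC, INO, HEC1, HEC2, HEC3 and STY1) were listed at 0 in both libraries, and the list summed to 46.9 FPKM in WT against 56.9 in drop, nearly all of it from HAF at 43.8 and 55.1. The 10 green tissue markers summed to 146 FPKM in WT against 23.1 in drop, with RBCS3B alone at 83.7 and 3.22. Of the 10, 4 had at least 10 FPKM, in WT only, so that minimum let them in where they were higher. Drop was past 2-fold lower in 4 of those 4, against 27.9% of all genes. LHCB2.1 was nearly level at 3.96 and 3.24. The zeros of RBCS2B, LHCB1.1 and LHCB1.2 in drop stood against WT values of only 0.41, 0.52 and 0.16. NMT2, SDC, AAPT2 and CCT1 were thus lower in the library where the sperm and green tissue markers had lower sums. XPL1, PECP1 and PS2 were higher where the vegetative tube markers were higher. The part of cell make-up in these differences was not tested.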

How the data were processed

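The deposited table holds FPKM values made by the authors, a column for each library. The submitters' processing notes name TopHat2 2.0.14, Cufflinks 2.2.1 and the build TAIR10. No source used here states their parameters or the scaling between libraries, and depth is known only through the estimated value of 1 fragment (0.138 FPKM kb for WT, 0.243 for drop). Estimated fragments use the longest annotated transcript and are approximate, because Cufflinks corrects lengths and divides fragments.

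The comparison used log2((drop FPKM + 1)/(WT FPKM + 1)), which understates the ratio of low genes. A gene counted as higher or lower past 2-fold on this scale if either library reached 10 FPKM. A gene that reached 10 FPKM in 1 library only thus entered through the library where it was higher. Folds are ratios of deposited FPKM, and none is given against 0. With 1 library per genotype no test was run. The members and lists were chosen with earlier results of these data known. The text names the members, list genes, the nearest genes in identifier order (1 of them is not reported here) and the 5 genes nearest to XPL1. The scalings and counts were tested on simulated data.

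Names, models and sequences come from RefSeq TAIR10.1, which may differ from the authors' TAIR10 annotation, and 32810 of 33557 identifiers matched. Coding sequences were aligned with MAFFT 7.526. Other steps used Python 3.11.15 with pandas 2.3.3, numpy 2.4.6 and scipy 1.17.1.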

Additional observations from a re-analysis of the deposited data

How the results depend on the processing

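No paired analysis was possible because there is only 1 library of each genotype, and for the same reason no replicate could be left out. No ratio was computed for NMT3, which is listed at 0 in both libraries. The scalings were equal sums, the same after removing the 50 highest and the organelle genes (trimmed sums), the median ratio set to 1 over genes with 10 FPKM or more in both, and quantiles. The log2 ratio of XPL1, 6.51 as reported, moved to 4.33 with 10 as pseudocount, 5.02 at equal sums, 5.41 by median ratio and 5.40 at trimmed sums. The summed members, at 4.95, gave 3.83, 3.47, 3.86 and 3.85 in the same order. NMT2, at -2.38, ranged from -4.63 with a pseudocount of 0.1 to -0.54, short of 2-fold, with 10, and lay between -2.47 and -2.13 under the scalings. The pseudocount and the scalings set these shifts by construction.

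The pathway lists' median of 0.50 was 0.51 and 0.46 with pseudocounts of 0.1 and 10, -0.97 at equal sums, -0.59 by median ratio and by trimmed sums, and 0.17 with quantiles. It was 0 with no filter, 0.036 with a minimum of 1 FPKM and 0.70 with 50 FPKM. Of its genes, 6 were higher as reported, 10 with no filter or a minimum of 1 FPKM, and 2 with a pseudocount of 10, a minimum of 50 FPKM, the 4-fold rule or any scaling but quantiles. As reported 4 were lower, against 7 at equal sums and 2 with 50 FPKM.

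Over all genes 1650 were higher as reported, 322 at equal sums, 579 by median ratio, 571 at trimmed sums, 2605 with no filter or 1 FPKM, 937 with 50 FPKM and 638 at 4-fold. Lower genes numbered 1015 as reported, 1576 at equal sums, 3001 with no filter or 1 FPKM and 299 with 50 FPKM. Depth limits NMT2, whose drop value rests on about 1 fragment, and NMT3, for which no fragments were estimated.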

Other observations

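Genes of the phosphate starvation response were looked at after the values of PECP1, PS2 and PLDZETA2 had been seen, so the list of 26 genes was chosen with those values known and is a description. Of the 26, 9 had at least 10 FPKM in at least 1 library. As deposited 6 of the 9 passed 2-fold upward in drop and 2 downward, against 45.4% and 27.9% of all genes at that level. SPX1, AT4, PHF1 and PAP10 reached 10 FPKM in drop only, so that minimum let them in through the library where they were higher. At equal sums 3 were higher and 3 lower, against 8.86% and 43.4%. SPX1 (AT5G20150), a phosphate sensor gene, was at 3.61 FPKM in WT against 73.1 in drop, a 20.3-fold higher value. The non-coding RNA gene AT4 (AT5G03545) was at 0.327 FPKM in WT against 14.2 in drop. PHF1, needed for phosphate transporters to leave the endoplasmic reticulum, was at 7.02 and 53.3 FPKM. These 3 were at least 2-fold higher at equal sums too.

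The other 3 genes past 2-fold upward as deposited were MGD2, PAP10 and PHT1;4, and they were within 2-fold at equal sums. The galactolipid synthase gene MGD2 was at 53.1 FPKM in WT against 199 in drop, and the acid phosphatase gene PAP10 at 7.44 and 33.8. The phosphate transporter gene PHT1;4 was at 164 and 675 FPKM, a log2 ratio of 2.04 that was 0.54 at equal sums. The master regulator gene PHR1, below 10 FPKM, was at 2.25 FPKM in WT against 9.40 in drop. PAP17 and RNS1 had the reverse direction past 2-fold as deposited. The acid phosphatase gene PAP17 was at 67.1 FPKM in WT against 20.7 in drop, and the ribonuclease gene RNS1 at 51.0 and 11.4. IPS1, PHT1;1, PHT1;8 and PHO1 were listed at 0 in both libraries. Per the labels, the growth medium was the same for both libraries and its recipe lists no phosphate salt. The part of phosphate supply in these differences was not tested.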
